A study of Rattus norvegicus with 4 samples.

Results

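The interleukin-1 family and the inflammasome were described here through 10 genes chosen by name, Il1a, Il1b, Il1rn, Il1r1, Il1r2, Il18, Il33, Nlrp3, Casp1 and Pycard. Of these, 9 had an array row annotated with that gene symbol alone, among 14506 genes with such a row, and each of the 9 had 1 row. Nlrp3 was not analysed here, because no row carried its symbol alone. The samples were retroperitoneal white fat, a visceral depot, from male rats of the WNIN/Ob strain, which has an obese and a lean phenotype. There were 2 obese rats and 2 lean rats, all 4 months old, untreated and fed stock diet, and each gave 1 Affymetrix Rat Gene ST array. The labels give the phenotype of each rat but no allele, so whether the lean rats carry an obesity allele is not known here. Whole tissue was used, with all the cell types of the depot.

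Interleukin-1 alpha and interleukin-1 beta, encoded by Il1a and Il1b, are inflammatory cytokines that act through the receptor Il1r1. The receptor antagonist Il1rn occupies Il1r1 without signalling, and Il1r2 is a decoy receptor. Interleukin-1 beta and interleukin-18 are made as inactive precursors, which the protease caspase-1, encoded by Casp1, cleaves inside the inflammasome, a complex of a sensor such as Nlrp3 with the adaptor Pycard. Interleukin-33 is a related nuclear cytokine released by damaged stromal and barrier cells. In human obesity white fat is known as a source of the receptor antagonist, and macrophages are known producers of many of these proteins.

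Il1rn was the member that rose in obese fat, by 5.36-fold over a lean level near background that leaves the size uncertain, while neither Il1a nor Il1b passed the test in either direction. Casp1 lay higher in both obese rats by 2.32-fold without passing the threshold, and Il33 lay lower in both. Of the 9 measured members 1 was called by limma at an adjusted p under 0.05, where 0.841% of all genes tested were called, 0.772% as higher and 0.0689% as lower in obese fat. The values of the obese rats were both above those of the lean rats for 5 members and both below for 2, and the groups overlapped for the other 2. Over all genes tested those shares were 26.4% above and 21.3% below. The median difference of the 9 members was 0.51 on the log2 scale, against 0.00047 for all genes. Omitting lean rat 1 gave 0.25, obese rat 1 0.29, obese rat 2 0.35 and lean rat 2 0.65. All differences below are log2 intensity, obese minus lean, and adjusted p-values cover all 14506 genes. With so few rats the smallest two-sided p of an exact permutation test is 0.333, so a call depends on limma's borrowing of spread between genes. Where a rat is left out, its phenotype has a single array, so the spread comes from the pair of the other phenotype and from limma's trend, the lone array is assumed to vary alike, and a call gained there is weak evidence.

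Several array features bear on these values. The summed intensity of 10 skeletal muscle markers was 648 and 476 in the obese rats, 31624 in lean rat 1 and 655 in lean rat 2, so lean rat 1 stood apart, and values without it are given for each member. The adipocyte gene Adipoq lay at 4064 and 5001 in the obese rats, against 4424 and 3718 in the lean rats, and Plin1 at 1208 and 1406 in the obese rats, against 1020 and 1158 in the lean rats. As a guide to background, the 95th percentile of 188 olfactory and vomeronasal receptor genes was 22.3 and 23.4 on the obese arrays. On the lean arrays it was 25.6 in lean rat 1 and 37.8 in lean rat 2. Values without lean rat 1 therefore use, as the only lean array, the one where this percentile was highest. Of the members, Il1r1, Il33, Casp1 and Pycard exceeded that percentile on all 4 arrays, Il1rn on 3, Il18 on 2, Il1b and Il1r2 on 1, and Il1a on none. Levels of different genes are not compared, because each probe set has its own response.

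**Figure D1:**
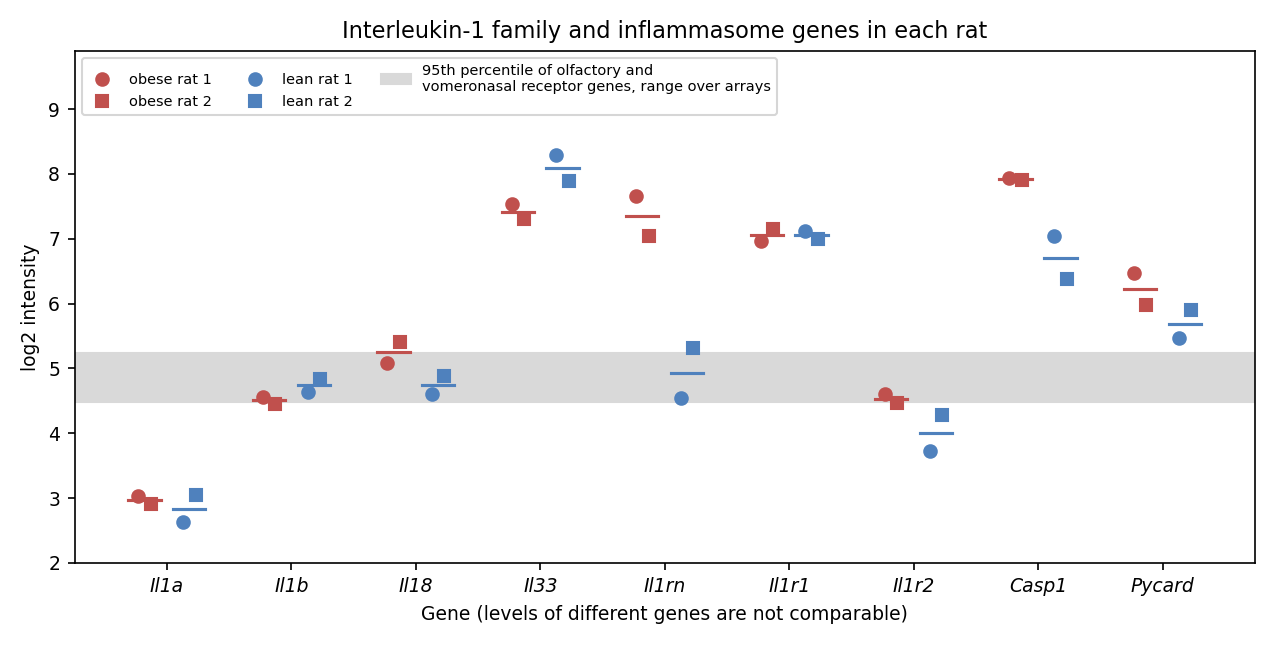
The log2 intensity of the 9 measured members is plotted for each rat, obese rats on the left of each pair and lean rats on the right, with bars at the group means and a grey band for the range over arrays of the 95th percentile of receptor genes near background. The obese rats stand at 7.66 and 7.03 for Il1rn and the lean rats at 4.54 and 5.32, while Il1a lies under the band in all 4 rats.

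Among the ligands, Il1b had an intensity of 23.6 and 21.9 in the obese rats, against 24.9 and 28.5 in the lean rats. Both obese rats lay just below both lean rats, and all 4 values were close to the receptor percentile. The difference was -0.23 (SE 0.22, 95% interval -0.75 to 0.28, limma adjusted p = 0.67), and -0.33 without lean rat 1. Il1a stood at 8.19 and 7.48 in the obese rats, against 6.18 and 8.27 in the lean rats. These groups overlapped and every value was under the receptor percentile of its array, so the Il1a difference of 0.13 (95% interval -0.47 to 0.73, adjusted p = 0.85) carries little information. Without lean rat 1 it was -0.08.

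Il18, the other ligand that caspase-1 matures, stood at 34.1 and 42.7 in the obese rats, against 24.3 and 29.6 in the lean rats. Both obese rats were higher, by 0.51 (SE 0.24, 95% interval -0.06 to 1.07), and the limma adjusted p was 0.37. Both lean values were under the receptor percentile of their arrays, so the size of the difference is uncertain. The Il18 difference was 0.36 without lean rat 1. Its soluble inhibitor Il18bp, the interleukin-18 binding protein, was at 216 and 161 in the obese rats, against 82.3 and 132 in the lean rats. The groups again did not overlap, with a difference of 0.84 and an adjusted p of 0.29, and the value was 0.50 without lean rat 1 and 1.18 without lean rat 2. Il18r1, the ligand-binding chain of the interleukin-18 receptor, was at 14.3 and 16.3 in the obese rats, against 23.8 and 27.6 in the lean rats. Each Il18r1 value was under the receptor percentile of its array, and that percentile was itself higher on the lean arrays, so its difference of -0.75 (adjusted p = 0.21) carries little information.

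Il33 stood at 185 and 158 in the obese rats, against 313 and 238 in the lean rats. The phenotypes did not overlap and the difference was -0.68 (SE 0.30, 95% interval -1.37 to 0.02), which did not pass (limma adjusted p = 0.33). It was -0.48 without lean rat 1 and -0.87 without lean rat 2. The receptor of interleukin-33, Il1rl1, stood at 106 and 197 in the obese rats, against 147 and 229 in the lean rats, where the groups overlapped. In mouse fat Il33 is known from stromal and mesothelial cells, and markers of both were read beside it. The summed intensity of 6 mesothelial markers was 183 and 223 in the obese rats, against 818 and 263 in the lean rats. The sum of 9 progenitor and fibroblast markers was 7997 and 8043 in the obese rats, against 8339 and 9862 in the lean rats. That order was not shared by all of its members, whose median difference was -0.10. Col1a1, the main fibrillar collagen chain, lay at 2303 and 2461 in the obese rats, against 2690 and 3806 in the lean rats, and Thy1 had a positive difference of 1.35. Pdgfra, a receptor of progenitor cells, lay at 288 and 338 in the obese rats, against 293 and 246 in the lean rats, and overlapped. The sum of 7 endothelial markers was 1344 and 1455 in the obese rats, against 1920 and 1809 in the lean rats. Of the defining markers, the groups overlapped for Msln, at 27.6 and 39.6 in the obese rats against 39.7 and 37.7 in the lean rats. They also overlapped for Cdh5, at 135 and 184 in the obese rats against 170 and 203 in the lean rats. They did not for Pecam1, at 276 and 362 in the obese rats against 442 and 447 in the lean rats. Of the 7 endothelial markers, 4 lay lower in both obese rats, 1 higher and 2 overlapped (21.3% of all genes lay lower and 26.4% higher). No member of these 3 lists passed the test, and the part of these cells in the Il33 value was not tested. In whole tissue, fewer cells of a type and less RNA per cell cannot be told apart.

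Il1rn, the antagonist, had an intensity of 203 and 131 in the obese rats, against 23.3 and 39.8 in the lean rats. The lower obese rat was still well above the higher lean rat. In log2 terms the means were 7.35 ± 0.45 in obese fat and 4.93 ± 0.55 in lean fat (SD, n = 2 each), a rise of 2.42 (SE 0.35, 95% interval 1.62 to 3.22, limma adjusted p = 0.028), with rank 60 by p among all genes. Without lean rat 1, which carried muscle transcripts, the rise was 2.03 (adjusted p = 0.032), and over the 4 fits with a rat left out it ran from 2.03 to 2.81. Lean rat 1 was under the receptor percentile of its array and lean rat 2 just above it, so the lean level was near background and the size of the fold is uncertain. When all 29214 rows of the array were tested, named or not, the adjusted p of Il1rn was 0.053.

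Macrophage markers were higher in the same rats. Of 21 measured markers 8 rose and none fell (0.772% of all genes rose), with a median difference of 1.61. For 16 of them the obese rats were both above the lean rats (26.4% of all genes). The marker list was chosen with earlier results of these data known, so these counts are a description only. Their summed intensity was 20897 and 13661 in the obese rats, against 5424 and 5245 in the lean rats. Of the defining markers Cd68, a lysosomal glycoprotein, was at 1352 and 1287 in the obese rats, against 219 and 472 in the lean rats. Adgre1, the F4/80 antigen, was at 104 and 88.4 in the obese rats, against 57.7 and 60.8 in the lean rats, and Csf1r, the receptor for colony-stimulating factor, was at 958 and 543 in the obese rats, against 432 and 332 in the lean rats. None of these 3 passed (adjusted p of 0.075, 0.26 and 0.29). Taken relative to the mean log2 level of the 21 markers on the same array, Il1rn stood at -1.53 and -1.65 in the obese rats, against -2.65 and -2.03 in the lean rats. The obese rats were higher on this relative scale, by 0.75, a description with no test. The mean includes markers with differences near 0, and of the 8 called markers, at 1.90 to 3.92, 5 had a larger difference than Il1rn and 3 a smaller one. Of 11 neutrophil markers, 1 lay higher in both obese rats, 1 lower and 9 overlapped (26.4% of all genes lay higher and 21.3% lower). None passed the test. Mmp9 was the higher, at 37.7 and 53.3 in the obese rats, against 19.1 and 28.1 in the lean rats. Its lean values were under the receptor percentile, as was Ltf, the lower, on all 4 arrays. The neutrophil sums were 535 and 832 in the obese rats against 568 and 665 in the lean rats. The groups overlapped for S100a8, S100a9 and Cxcr2. S100a8 lay at 8.88 to 9.92 in the obese rats and 9.84 to 10.9 in the lean rats, under the receptor percentile. The part of macrophage number in the Il1rn value was not tested.

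The pattern of Il1rn over the 4 arrays was compared with that of genes whose mean log2 level was at or above the median gene. Closest by Euclidean distance, after centring each gene, were Plin2 (0.13), Rassf4 (0.22) and C1qtnf1 (0.28). Plin2, which coats lipid droplets, had an intensity of 1984 and 1324 in the obese rats, against 235 and 361 in the lean rats. In each of the 3, as in Il1rn, obese rat 1 was highest and lean rat 1 lowest. With 4 arrays such a likeness is a description with no test.

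The balance between antagonist and agonists was followed as the difference of log2 intensities within each array, whose height cannot be compared between pairs. Il1rn minus Il1b was 3.11 and 2.58 in the obese rats, against -0.10 and 0.49 in the lean rats, a shift of 2.65. Il1rn minus Il1a was 4.63 and 4.13 in the obese rats, against 1.91 and 2.27 in the lean rats, a shift of 2.29, but with Il1a under the receptor percentile on all 4 arrays this restates the Il1rn values. Against the receptor, Il1rn minus Il1r1 was 0.70 and -0.12 in the obese rats and -2.57 and -1.68 in the lean rats, a shift of 2.41. The phenotypes did not overlap for any of the 3 pairs, and each exact permutation p was 0.333, the smallest this design can give. Since Il1b exceeded the receptor percentile on 1 array only and Il1rn is in all 3 pairs, the shifts are not independent of the Il1rn difference.

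**Figure D2:**
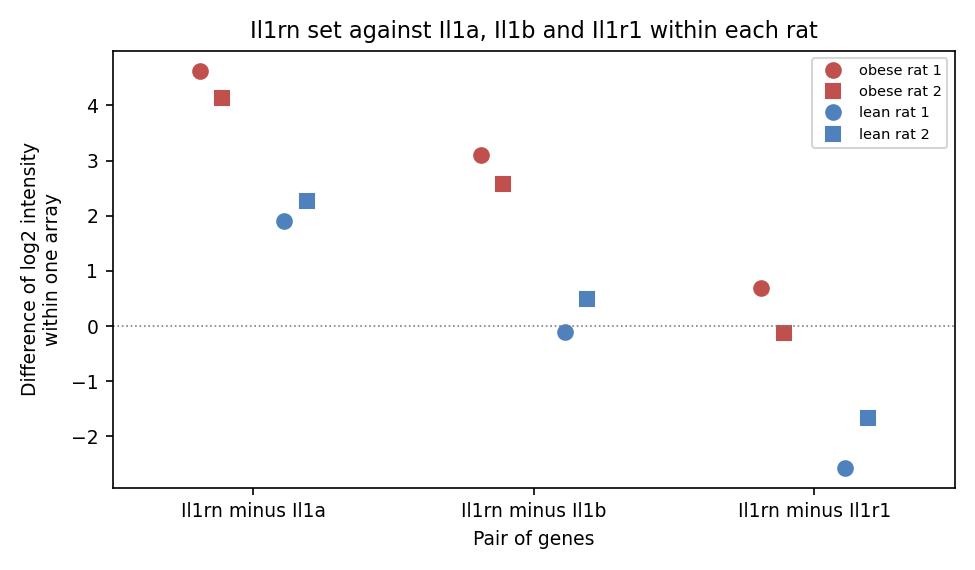
Il1rn minus Il1a, Il1b and Il1r1 is plotted for each rat as a difference of log2 intensities within 1 array, obese rats left of lean rats. The obese rats lie above the lean rats in each pair, for Il1rn minus Il1b at 3.11 and 2.58 in obese rats against -0.10 and 0.49 in lean rats.

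Among the receptors, Il1r1, the signalling receptor, stood at 125 and 143 in the obese rats, against 138 and 127 in the lean rats. The groups overlapped fully and the difference was 0.0094 (SE 0.27, 95% interval -0.61 to 0.63, limma adjusted p = 0.99), and 0.07 without lean rat 1. Its sign turned with quantile normalization (-0.13) and without obese rat 2 or lean rat 2, so Il1r1 has no direction here. The decoy receptor Il1r2 was at 24.3 and 22.1 in the obese rats, against 13.2 and 19.4 in the lean rats. Both obese rats were higher, by 0.53 (SE 0.26, 95% interval -0.07 to 1.13, adjusted p = 0.37), close to background, and the value was 0.25 without lean rat 1 and 0.81 without lean rat 2. Il1rap, the accessory chain shared by Il1r1 and the interleukin-33 receptor, was at 114 and 111 in the obese rats, against 99.2 and 64.4 in the lean rats, with a difference of 0.49 and an adjusted p of 0.46.

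Of the inflammasome genes, Casp1 stood at 244 and 240 in the obese rats, against 131 and 82.8 in the lean rats. The obese rats were nearly equal and both exceeded the lean rats, which differed from each other. The means were 7.92 ± 0.02 in obese fat and 6.70 ± 0.47 in lean fat (SD of log2 intensity, n = 2 each), and the difference of 1.21 (SE 0.32, 95% interval 0.48 to 1.94) did not pass (limma adjusted p = 0.14). Without lean rat 1 it was 1.55 and was called (adjusted p = 0.034), in a fit that called 7.45% of all genes and took its spread among rats from the obese pair alone, which for Casp1 was nearly equal. Without lean rat 2 it was 0.88. Relative to the macrophage markers of the same array Casp1 was at -1.27 and -0.78 in the obese rats, against -0.15 and -0.97 in the lean rats, where the groups overlapped. Pycard, the adaptor that links sensor and caspase-1, was at 88.8 and 63.0 in the obese rats, against 44.5 and 59.5 in the lean rats. Obese rat 2 was only just above lean rat 2, and the difference was 0.54 (SE 0.29, 95% interval -0.12 to 1.20, adjusted p = 0.41). Omitting lean rat 1 gave 0.33 for Pycard, obese rat 1 0.29, lean rat 2 0.75 and obese rat 2 0.79. On the scale relative to macrophage markers Pycard was lower in both obese rats, at -2.72 and -2.70, against -1.71 and -1.45 in the lean rats. So was Il18, at -4.11 and -3.27 in the obese rats, against -2.59 and -2.45 in the lean rats. The markers had a median difference of 1.61, so a gene with a smaller rise tends to come out lower on this scale. Without that step Pycard and Il18 lay higher in both obese rats, though neither passed the test.

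**Figure D3:**
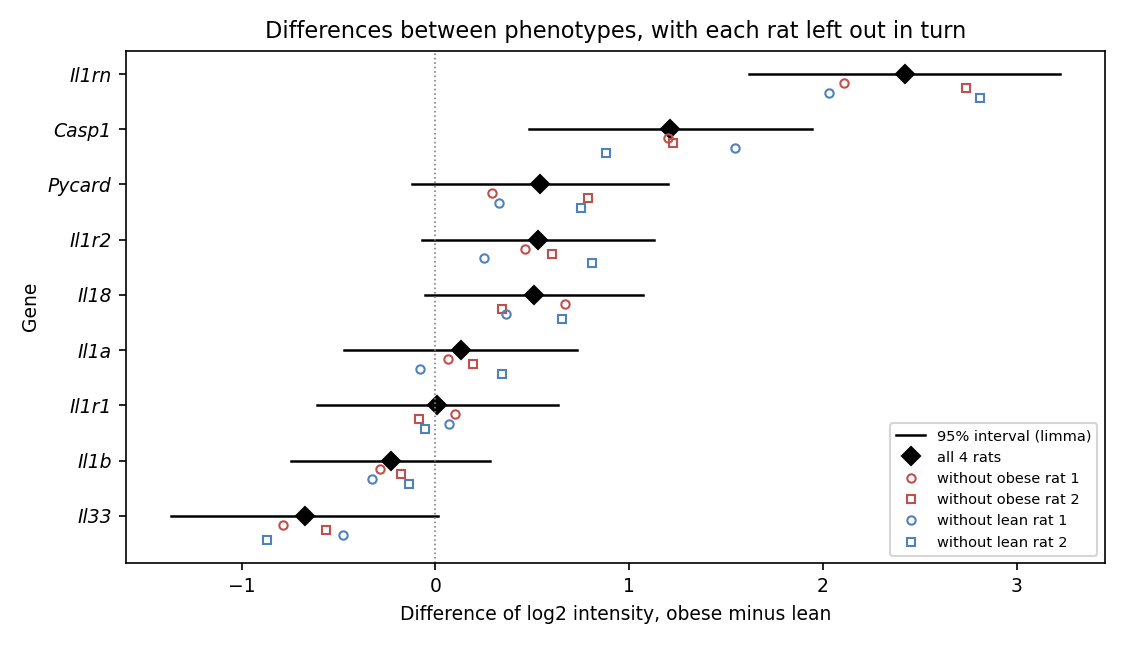
Black diamonds give the difference of log2 intensity, obese minus lean, for each of the 9 members with its 95% limma interval, and open symbols give it with each rat left out. The interval of Il1rn runs from 1.62 to 3.22 and that of Casp1 from 0.48 to 1.94, and the intervals of the other 7 members include 0.

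Sequence upstream of the annotated start is shown for Il1rn, the gene that rose, for Casp1, the member with the next largest difference, and for Il1b, the agonist that did not pass. Each run is 250 bases of the gene's own strand, ending at the base before the start, from RefSeq on GRCr8, for which 9 of the 10 genes had an entry. Capitals mark matches on either strand to 3 short patterns that were chosen after the sequences had been seen. These were TTNNGNAA for C/EBP, TGANTCA for AP-1 and GAGGAA for the core of PU.1.
Il1rn, chr3:27520072-27520321, plus strand: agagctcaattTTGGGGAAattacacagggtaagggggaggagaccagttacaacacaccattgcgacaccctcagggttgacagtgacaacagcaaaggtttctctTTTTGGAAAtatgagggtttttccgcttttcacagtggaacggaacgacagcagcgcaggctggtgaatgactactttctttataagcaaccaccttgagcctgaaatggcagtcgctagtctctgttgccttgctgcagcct
Casp1, chr8:10872580-10872829, plus strand: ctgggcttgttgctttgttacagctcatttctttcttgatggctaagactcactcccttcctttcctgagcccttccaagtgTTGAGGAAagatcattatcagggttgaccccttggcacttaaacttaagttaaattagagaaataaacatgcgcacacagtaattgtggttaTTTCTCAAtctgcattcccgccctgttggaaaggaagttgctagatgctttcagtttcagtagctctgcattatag
Il1b, chr3:137036582-137036831, minus strand: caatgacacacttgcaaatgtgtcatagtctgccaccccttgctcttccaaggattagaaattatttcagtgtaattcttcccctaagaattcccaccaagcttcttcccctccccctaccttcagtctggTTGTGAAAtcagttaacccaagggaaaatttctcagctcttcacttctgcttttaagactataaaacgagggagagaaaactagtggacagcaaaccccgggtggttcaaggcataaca

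The Il1rn run held 3 matches to TTNNGNAA, of which a pair overlap, beginning 143 and 142 bases before the start. The Casp1 run held 2 matches to TTNNGNAA, and 1 to GAGGAA that lies inside the first of them, and the Il1b run held 1 match to TTNNGNAA. Of the other members with an entry, Il1a, Il33 and Nlrp3 also held TTNNGNAA, and Il1r1, Il18 and Pycard held none of the patterns. Il33, which lay lower in both obese rats, thus held it too. Over 33469 promoters of the same length, TTNNGNAA occurred in 37.2%, TGANTCA in 6.34% and GAGGAA in 23.3%. A match is a description of letters, not a binding site.

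The wider pathway was read from 5 lists of 72 further genes, of which 62 were measured. None was called by limma (0.841% of all genes were), 7 of the 62 had an unadjusted p under 0.05 (15.3% of all genes did), and their median difference was 0.10. For 22 of them the obese rats were both above the lean rats and for 5 both below, where the shares over all genes tested were 26.4% and 21.3%.

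Of 20 inflammasome sensors and partners, 9 lay higher in both obese rats and none lower (26.4% and 21.3% of all genes), with a median of 0.19. Aim2, a sensor of cytosolic DNA, was at 30.5 and 46.4 in the obese rats, against 8.21 and 14.0 in the lean rats. The phenotypes did not overlap and the difference was 1.81 (SE 0.33), just short of the threshold (limma adjusted p = 0.057), with both lean values under the receptor percentile. Aim2 ran from 1.43 to 2.20 with single rats omitted and was called in those 4 fits, each with 1 phenotype at a single array, where the share of all genes called was 1.85% when obese rat 1 was omitted, 2.45% for obese rat 2, 7.45% for lean rat 1 and 3.29% for lean rat 2. Pstpip1, a binding partner of pyrin, was at 113 and 116 in the obese rats, against 56.0 and 57.7 in the lean rats. Its replicates were close together, and its difference of 1.01 had an adjusted p of 0.12.

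Of 14 receptor signalling genes, 7 lay higher in both obese rats and none lower (26.4% and 21.3% of all genes), with a median of 0.37. Irak1, a kinase recruited to the receptor, was at 273 and 400 in the obese rats, against 198 and 238 in the lean rats. Nfkb1, a subunit of NF-kB, was at 173 and 178 in the obese rats, against 145 and 112 in the lean rats. Their differences of 0.61 and 0.46 had adjusted p of 0.41 and 0.47. Of 6 other ligands and binding proteins, 2 lay higher in both obese rats, Il18bp and Il36b, and 2 lower, with a median of -0.13. Il36b, an interleukin-36 cytokine, was at 29.2 and 34.0 in the obese rats, against 24.1 and 23.8 in the lean rats. The difference was 0.40 (limma adjusted p = 0.44), with both lean values under the receptor percentile of their arrays. Of 6 other receptors, 1 lay higher in both obese rats and 1 lower, with a median of -0.09.

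Genes known to respond to interleukin-1 gave a median of -0.05 over 16 measured. Of these, 3 lay higher and 2 lower in both obese rats (26.4% and 21.3% of all genes). Cxcl1, a neutrophil chemokine, was at 76.9 and 70.9 in the obese rats, against 88.3 and 245 in the lean rats. Lean rat 2 alone was high, and the Cxcl1 difference of -0.99 (adjusted p = 0.34) was -0.26 without that rat and -1.73 without lean rat 1, where it was called (adjusted p = 0.029) with lean rat 2 as the single lean array and 7.45% of all genes called. Mmp3, the matrix protease stromelysin, was at 22.1 and 19.3 in the obese rats, against 29.3 and 30.5 in the lean rats. Its difference was -0.54 with a limma adjusted p of 0.31. Mmp3 exceeded the receptor percentile on 1 array only, and that percentile was higher on the lean arrays, so the difference carries little information.

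**Figure D4:**
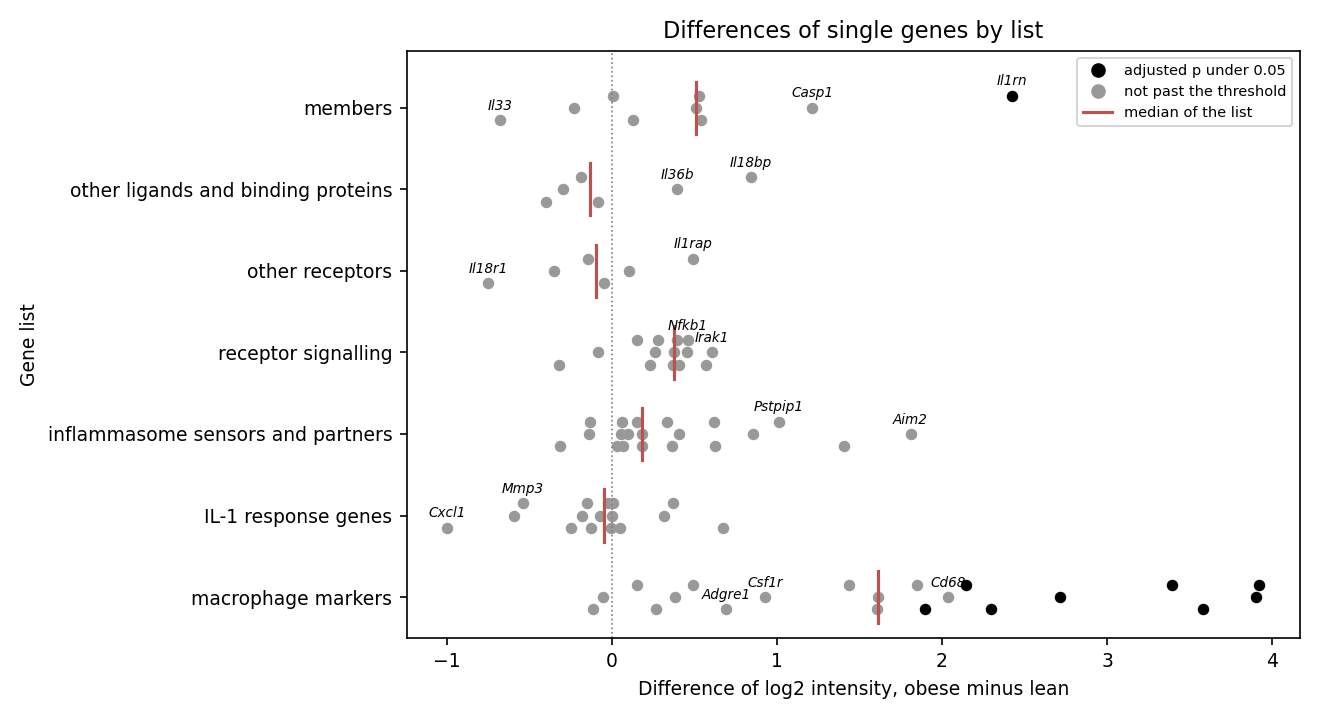
Each point is the difference of log2 intensity, obese minus lean, of 1 gene, by list, with black points past the threshold and a red line at the median of each list. Il1rn is the only black point outside the macrophage markers, whose median is 1.61, and the interleukin-1 response genes have a median of -0.05.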

How the data were processed

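Trizol RNA came from 500 mg of fat per rat, of which 100 ng was amplified and labelled, per the labels' protocols. Each deposited number is a linear intensity that the authors obtained with RMA, per the submitters' processing notes. Which software was used, and the genome build of the array, is not given in the sources. RMA includes a normalization between arrays, yet the interquartile range of log2 values was 2.77 and 2.76 on the obese arrays and 2.63 and 2.24 on the lean arrays.

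Values were taken to log2, without a pseudocount. Of 29214 rows, 15310 had exactly 1 symbol in the platform annotation, 323 several and 13581 none. The row with the highest mean was kept for each gene. The phenotypes were tested by limma 3.58.1 under R 4.3.3 (lmFit, then eBayes with a mean-variance trend), with Benjamini-Hochberg adjustment over 14506 genes and a threshold of 0.05. The procedure was tested on simulated data. Each sample is a separate rat, and the small number of arrays limits the precision. Members, lists and the background guide were chosen with earlier results of these data known. Named genes are all members and, of each pathway list, up to 4 called genes and then the 2 smallest p-values. The 3 genes most like a called member were also named, among genes with a mean at or above the median gene. Defining markers with a row were named too, except Cd3e, Acta1 and Ckm, whose values are not given. Il1rl1, Col1a1, Pdgfra, Thy1, Mmp9, Ltf and the genes in the closing observations were named in addition, after their values were seen. Sequence came from RefSeq on GRCr8.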

Additional observations from a re-analysis of the deposited data

How the results depend on the processing

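Il1rn kept its direction under all 14 alternatives and its call under 13 of them, at 1.94 to 2.81. The rat-number block, the variance settings, array weights, the gene filter, averaged rows and all rows left each member's difference as in the main fit. Those alternatives could change a call but not a direction. Testing all rows of the table left 0 members called, with Il1rn at 2.42 and a limma adjusted p of 0.053. More features were adjusted for there, and the SE of Il1rn was 0.37, against 0.35 in the main fit. Omitting single rats gave 1 to 2 called members and put Casp1 at 0.88 to 1.55, called without lean rat 1. Il1r1 reversed with quantile normalization (-0.13) and spanned -0.084 to 0.10 when single rats were omitted, and Il1a spanned -0.080 to 0.34. Il1b, Il1r2, Il18, Il33 and Pycard kept their direction and stayed short of the threshold under every alternative that gave a value. With the lowest 25% of genes left out, Il1a, Il1b and Il1r2 gave no value. The count of all genes called, 122, was 75 with quantile normalization, 262 with a robust variance model, 185 over all rows and 268 to 1081 with a rat left out. The count of other pathway genes called, 0 of 62, was 1 with quantile normalization, with median centring, with a robust variance model and with array weights, in each case Aim2, and 1 to 2 with a rat left out. Deviations of same-numbered rats correlated at 0.02 across genes. With 2 rats per phenotype this is a single value, so it cannot tell whether the rat numbers pair the samples. With rat number as a block in the paired fit, 327 genes were called, 1 member (Il1rn) and 1 other pathway gene (Aim2, adjusted p = 0.0040). The cause of these changes was not tested. The shifts of Il1rn against Il1a, Il1b and Il1r1 kept their direction under every alternative run. Median centring cancels within an array and each of these genes had 1 row, so centring and averaged rows could not change the shifts. Signals near background limit Il1a, Il1b, Il1r2 and the lean levels of Il1rn and Il18.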

Other observations

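A pair of inflammasome partners outside the naming rule was chosen after their values were seen. Casp4, an inflammatory caspase that senses bacterial lipopolysaccharide in the cytosol, was at 78.2 and 67.5 in the obese rats, against 42.3 and 38.1 in the lean rats, a difference of 0.86 with a limma adjusted p of 0.17. The groups did not overlap, and the Casp4 value was 0.93 without lean rat 1. P2rx4, an ATP-gated channel, was at 527 and 157 in the obese rats, against 127 and 92.6 in the lean rats. Obese rat 1 was far above the others, and the P2rx4 difference of 1.41 (adjusted p = 0.27) was 0.53 without that rat and 2.28 without obese rat 2, where it was called (adjusted p = 0.0014) with obese rat 1 as the single obese array, the spread among rats taken from the lean pair and 2.45% of all genes called.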
